A study of Mus musculus with 28 samples.

Results

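Crude synaptosome libraries of mouse brain from 2 preparations are compared here, 10 libraries labelled SynSURF and 3 labelled for a sucrose gradient. They are 13 of the 28 libraries of the series and were taken by their titles, with genes joined by symbol between the separately deposited tables of the 2 preparations. The rest of the series is 10 sorted SynSURF libraries, 3 sorted sucrose libraries and 2 libraries of total RNA from sorted SynSURF particles. Per the labels, both groups are crude pellets from brain, taken up in 10 µL of PBS, with RNA amplified to cDNA (Repli-g WTA single cell kit), mRNA libraries built on the 10x Genomics platform and paired-end reads from an Illumina HiSeq. The labels give no strain, age, sex, brain region or number of animals for either group, and they do not say how the crude SynSURF pellet was made before sorting. Whether replicates are separate animals is not said, so a p-value here reflects the spread among these libraries, part of which may be technical. Preparation, batch, deposited table, the authors' counting and any difference in sex cannot be told apart in this comparison. Every difference below is one between these 2 sets of libraries.

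Synaptosomes are nerve terminals that pinch off and reseal when brain tissue is homogenised, often with a piece of postsynaptic membrane attached. They hold synaptic vesicles, mitochondria and mRNAs that are translated locally. A crude synaptosome pellet is the material before any sorting, and it is known to carry along fragments of glia and myelin, free mitochondria and some debris of cell bodies. Sucrose density centrifugation is the classical way to obtain such fractions.

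The 2 tables shared 23466 symbols, over which totals ranged between 1010124 and 8669764 counts in SynSURF and between 1801149 and 6633705 counts in sucrose libraries. Genes with at least 1 count numbered 11732 to 14003 in SynSURF and 12493 to 13692 in sucrose libraries. Symbols listed in 1 table alone took 2.34% to 2.59% of counts in SynSURF and 2.27% to 2.36% in sucrose libraries. Levels are given as CPM (each count relative to the library total) scaled with TMM factors, which correct library totals for composition. For SynSURF libraries the lowest, median and highest of 10 are given, for sucrose libraries the values of replicates 1, 2 and 3 in that order, and group means as mean ± SD (n = 10 SynSURF and n = 3 sucrose). Log2 fold changes are SynSURF over sucrose ± SE, from edgeR's quasi-likelihood test, and a gene is called at a Benjamini-Hochberg adjusted p under 0.05 over all genes tested.

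The first question was how far the 2 crude preparations held the same RNAs. Most genes were at similar levels. Over the 11621 genes tested, the median log2 fold change was 0.04, and 9614 genes (82.7%) differed by less than 1 on the log2 scale. The median Spearman correlation across tested genes was 0.833 between a SynSURF and a sucrose library, against 0.869 within SynSURF and 0.864 within sucrose libraries. As genes are not replicates, the correlations serve to describe these libraries. The test called 270 genes, 2.32% of those tested, of which 228 were higher (1.96%) and 42 lower (0.361%) in SynSURF libraries. At an unadjusted p under 0.05 there were 1140 genes, the median SE of a log2 fold change was 0.54, and the called changes closest to 0 were 1.202 and -1.291. Without sucrose replicate 1 the count of lower genes was 24, and without sucrose replicate 2 it was 75.

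A panel of widely used mRNAs, with neuronal and glial markers among them, was read first. Of its 16 tested genes, 4 had positive and 12 negative log2 fold changes, and 3 had an unadjusted p under 0.05. EdgeR, DESeq2 and limma voom each called 1, and edgeR called 2.32% of all tested genes. Some neuronal and astrocyte members are given here. Snap25, a plasma-membrane SNARE protein of vesicle fusion, had a lowest of 1745, a median of 2897 and a highest of 3176 CPM in the SynSURF libraries, against 1762, 2750.3 and 2416 CPM in the sucrose libraries. The groups overlapped, and the log2 fold change of 0.18 had a 95% interval of -0.38 to 0.74 (adjusted p = 0.886). Slc1a2, the main astrocyte glutamate transporter, was one of the most abundant mRNAs in both, with a lowest of 4415, a median of 8239 and a highest of 16649 CPM in the SynSURF libraries, against 8286, 12116 and 9338 CPM in the sucrose libraries (log2 fold change -0.17, 95% interval -0.88 to 0.53, adjusted p = 0.912). Syp, which encodes the vesicle protein synaptophysin, averaged 25.4 ± 21.2 CPM in SynSURF and 32.4 ± 26.9 CPM in sucrose libraries, with a log2 fold change of -0.34 and a wide 95% interval of -1.63 to 0.95. Camk2a, a kinase whose mRNA is carried into dendrites, averaged 309 ± 138 CPM in SynSURF and 575 ± 335 CPM in sucrose libraries and was not called either (log2 fold change -0.90, 95% interval -1.72 to -0.07, adjusted p = 0.452). Gad1, which makes GABA, Slc17a7, the vesicular glutamate transporter of cortical terminals, and Gfap, the astrocyte intermediate filament, had log2 fold changes of -0.34, 0.06 and -0.12, none of them called.

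**Figure D1:**
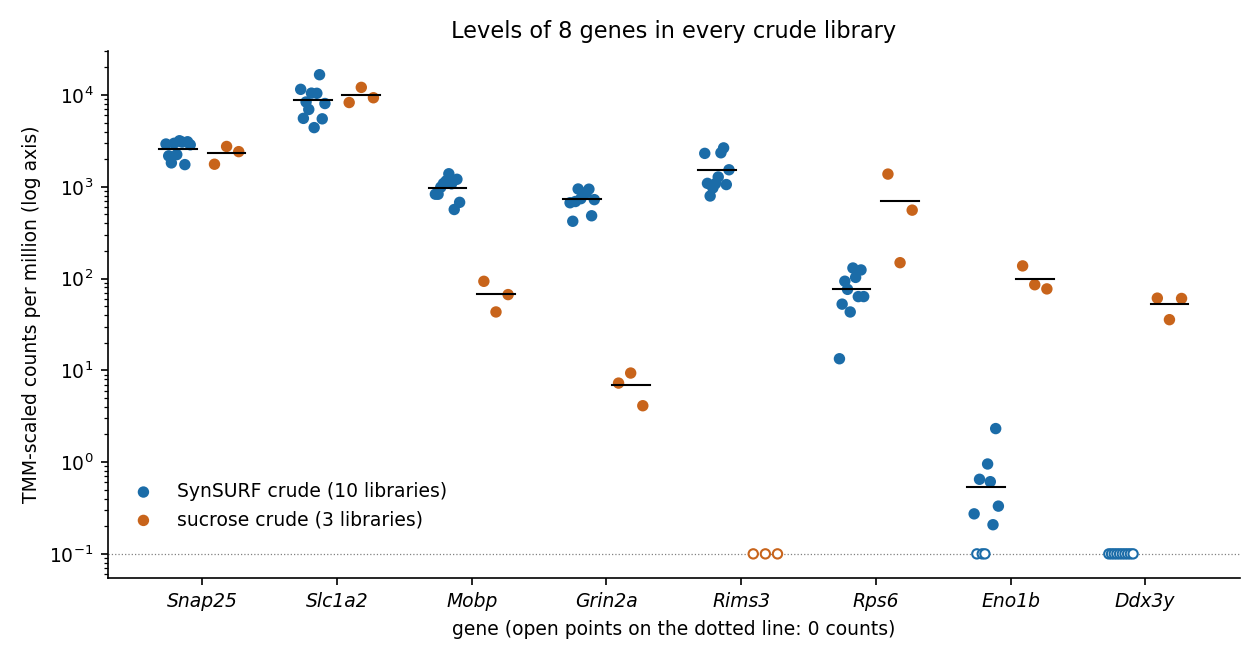
TMM-scaled CPM on a log axis for 8 genes in each of the 10 SynSURF crude (blue, left) and 3 sucrose crude libraries (orange, right); each point is a library, black bars are group means, and open points on the dotted line are counts of 0. Snap25 and Slc1a2 overlap between preparations, whereas for Mobp, Grin2a and Rims3 every SynSURF library lies above every sucrose library, and for Rps6, Eno1b and Ddx3y every one lies below.

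Lists of cell type genes held few calls, as did all tested genes (2.32%). Of 24 tested astrocyte genes, 18 microglial genes, 19 vascular genes, 10 oligodendrocyte precursor genes and 15 glutamatergic neuron genes, edgeR called none, and the list medians on the log2 scale were 0.00, -0.13, -0.01, 0.11 and -0.08, beside 0.04 for all tested genes. At an unadjusted p under 0.05 these lists held 1, 1, 1, 0 and 3 genes, and neither DESeq2 nor limma voom called any. Of all 11621 tested genes, 1140 had an unadjusted p under 0.05, DESeq2 called 375 and limma voom 225. No gene of the astrocyte, oligodendrocyte, microglial or vascular list was at 0 in every crude library. Of 22 oligodendrocyte genes 1 was called (Mobp, higher), with 7 positive and 15 negative log2 fold changes and a list median of -0.19. Of 17 GABAergic neuron genes 1 was called (Pvalb, higher), with 6 positive and 11 negative and a median of -0.34. The summed level of the astrocyte list was 2.27% to 4.18% of counts in SynSURF and 2.70% to 3.35% in sucrose libraries, and that of the oligodendrocyte list 0.562% to 1.34% in SynSURF and 0.808% to 1.31% in sucrose libraries. These ranges overlapped, as did those of the microglial list, 0.0645% to 0.176% in SynSURF and 0.0824% to 0.192% in sucrose libraries. In bulk samples such as these, fewer particles of a type and less RNA per particle cannot be told apart.

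Of 38 presynaptic genes edgeR called 2, both higher, and of 37 postsynaptic genes 3, all higher. DESeq2 called 2 presynaptic and 4 postsynaptic genes, and limma voom 1 and 4, beside 375 and 225 of all 11621 tested genes. At an unadjusted p under 0.05 in edgeR's test the lists held 5 and 11 genes, beside 1140 of all tested. The list medians were 0.02 and 0.22 on the log2 scale, and the presynaptic one turned to -0.04 with unscaled library totals and -0.03 with upper-quartile factors. The presynaptic list took 1.73% to 2.29% of counts in SynSURF and 1.84% to 1.93% in sucrose libraries. The postsynaptic list took 1.02% to 1.36% of counts in SynSURF and 0.830% to 1.16% in sucrose libraries. Of 35 mRNAs known from neuropil, the layer of dendrites and axons, 2 were higher (Shank2 and Psd) and none was lower, with a list median of -0.14. Over all tested genes 1.96% were called higher. In the regional lists, 2 of 18 striatal genes (Gpr6 and Adcy5), 2 of 13 cerebellar genes (Pvalb among them) and 1 of 19 cortical and hippocampal genes (Prox1) were called, all higher. Log2 fold changes were positive for 13 and negative for 5 striatal genes (median 0.44), and positive for 5 and negative for 8 cerebellar genes (median -0.26). The cortical and hippocampal list had 10 positive and 9 negative (median 0.01). In the thalamus, olfactory bulb, choroid plexus, hindbrain and hypothalamus lists no gene was called by edgeR, DESeq2 or limma voom. At an unadjusted p under 0.05 they held 0, 1, 1, 0 and 2 genes, beside 1140 of all 11621 tested. Their medians were 0.38, -0.12, 0.13, 0.51 and 0.12 over 10, 7, 8, 4 and 12 tested genes.

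**Figure D2:**
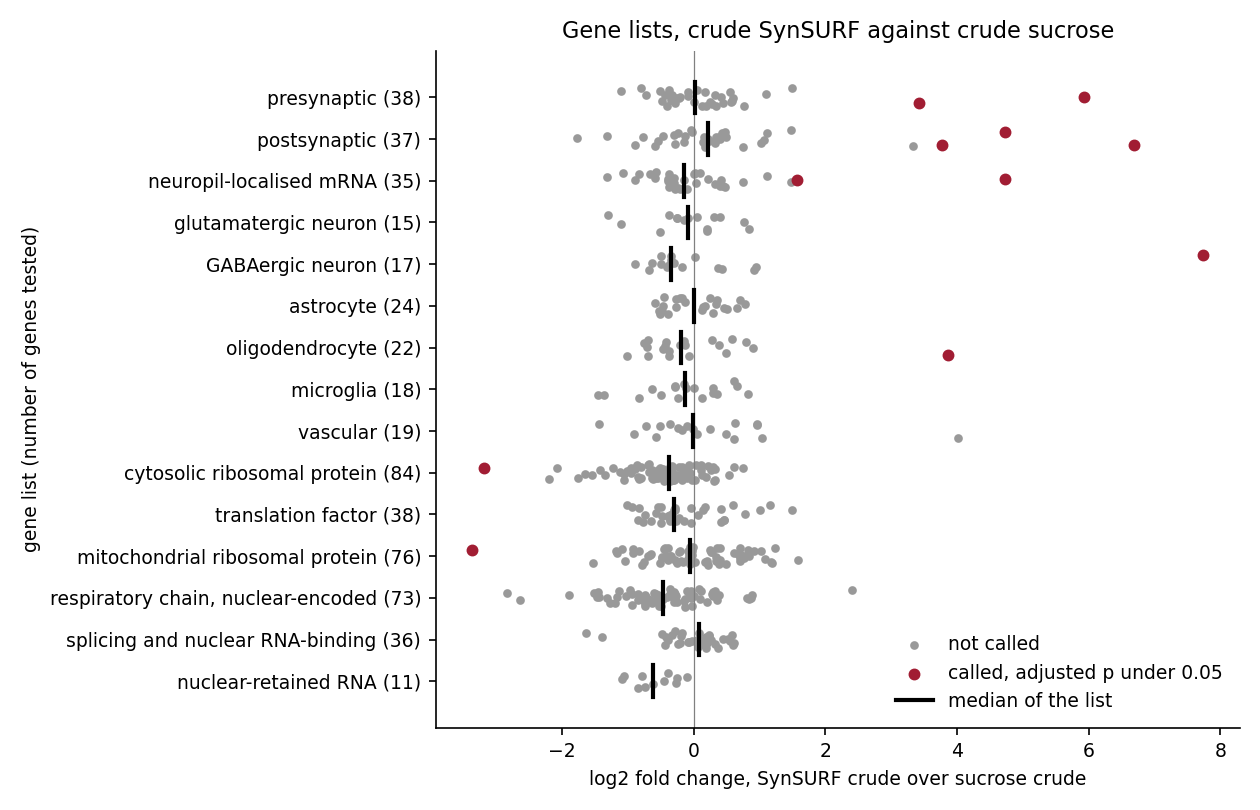
Log2 fold changes of SynSURF crude over sucrose crude libraries for the tested members of 15 gene lists, with 1 point per gene, called genes in red and a black bar at each list's median. List medians lie between -0.62 and 0.22, and the called presynaptic and postsynaptic genes lie at 3.42 and above.

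The 5 called presynaptic and postsynaptic genes were each more than 8-fold higher in SynSURF libraries, as were Adcy5 of the striatal, Nefl of the cytoskeleton and Atp6v0c of the proton pump list. Grin2a, the GluN2A subunit of the NMDA receptor, had a lowest of 421, a median of 733 and a highest of 946 CPM in the SynSURF libraries, against 7.26, 9.34 and 4.12 CPM in the sucrose libraries. Every SynSURF library lay above every sucrose library (log2 fold change 6.68 ± 0.46, adjusted p = 3.06e-08). Rims1, the RIM scaffold of the active zone, had a lowest of 397, a median of 788 and a highest of 1657 CPM in the SynSURF libraries, against 0.519, 32.2 and 4.63 CPM in the sucrose libraries, again with no overlap (log2 fold change 5.93 ± 0.83, adjusted p = 0.000111). Sucrose replicate 2 stood above the other sucrose libraries for this gene. Lrrc7, the postsynaptic scaffold densin, averaged 749.7 ± 230.4 CPM in SynSURF and 54.1 ± 35.8 CPM in sucrose libraries (log2 fold change 3.78 ± 0.45, adjusted p = 2.06e-05). Shank2, another scaffold of the postsynaptic density, averaged 114 ± 44.9 CPM in SynSURF and 3.95 ± 2.82 CPM in sucrose libraries (log2 fold change 4.72 ± 0.63, adjusted p = 6.23e-05). For both scaffolds the lowest SynSURF library lay above the highest sucrose library. Syt2, a calcium sensor of fast transmitter release, was much scarcer, at 16.4 ± 6.90 CPM in SynSURF and 1.51 ± 1.04 CPM in sucrose libraries (log2 fold change 3.42 ± 0.67, adjusted p = 0.00442). Adcy5, the adenylyl cyclase of striatal neurons, had a lowest of 135, a median of 565 and a highest of 1536 CPM in the SynSURF libraries, against 57.04, 59.5 and 47.8 CPM in the sucrose libraries (log2 fold change 3.64 ± 0.60, adjusted p = 0.000816). Nefl, the light neurofilament subunit of axons, averaged 225 ± 127 CPM in SynSURF and 26.1 ± 11.99 CPM in sucrose libraries (log2 fold change 3.10 ± 0.53, adjusted p = 0.00136), and Atp6v0c, a membrane subunit of the proton pump that fills synaptic vesicles, averaged 297 ± 90.1 CPM in SynSURF and 13.2 ± 1.83 CPM in sucrose libraries (log2 fold change 4.48 ± 0.41, adjusted p = 7.69e-07). Every one of these 8 genes differed between the tables in implied gene length, as set out below. In the proton pump list Atp6v0c was the only call among 20 tested genes, beside 2.32% of all tested genes. Log2 fold changes of that list were positive for 10 and negative for 10 genes (median 0.00). Its member Atp6v0c-ps2 had a log2 fold change of -0.77 and was not called (edgeR adjusted p = 0.473).

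The genes with the largest increases were nearly missing from the sucrose libraries. Of the 228 higher genes, 216 had every SynSURF library above every sucrose library, beside 2.42% of all tested genes, and 48 had a count of 0 in all 3 sucrose libraries. The median log2 fold change of the higher genes was 4.83, and 174 of them were more than 8-fold higher. Rims3, a short RIM protein of the active zone, had a lowest of 794, a median of 1184 and a highest of 2654 CPM in the SynSURF libraries, against 0, 0 and 0 CPM in the sucrose libraries. Against a floor of 3 counts over the sucrose group it was at least 5421-fold higher (adjusted p = 3.07e-08). Zdhhc23, a palmitoyltransferase, had 118, 225 and 333 CPM in SynSURF libraries and Ssh1, the cofilin phosphatase slingshot, had 42.9, 86.2 and 145 CPM, with counts of 0 in all sucrose libraries. They were at least 711-fold and 326-fold higher.

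Among genes with counts in both preparations, Slc9a7, a sodium-proton exchanger of the Golgi network, had a lowest of 439, a median of 541 and a highest of 1029 CPM in the SynSURF libraries, against 1.56, 0.287 and 0.514 CPM in the sucrose libraries (log2 fold change 10.03 ± 0.67, adjusted p = 3.06e-08). Shc3, an adaptor of neuronal receptor tyrosine kinases, had a lowest of 632, a median of 1154 and a highest of 1737 CPM in the SynSURF libraries, against 0, 2.01 and 1.03 CPM in the sucrose libraries (log2 fold change 9.73 ± 0.66, adjusted p = 3.06e-08). For both genes the lowest SynSURF value lay far above the highest sucrose value. Genes of synaptic signalling were among the 10 highest as well. Igsf9b, an adhesion molecule of inhibitory synapses, averaged 76.6 ± 30.2 CPM in SynSURF and 0.0479 ± 0.0830 CPM in sucrose libraries, Cacng4, an auxiliary subunit of AMPA receptors, 61.4 ± 32.8 CPM in SynSURF and 0.0479 ± 0.0830 CPM in sucrose libraries, and Kctd16, an auxiliary subunit of GABA-B receptors, 101 ± 30.2 CPM in SynSURF and 0.383 ± 0.664 CPM in sucrose libraries. In each of these 3 the only sucrose library with a count was replicate 2. Dok6, an adaptor of receptor tyrosine kinases, averaged 109 ± 46.4 CPM in SynSURF and 0.0479 ± 0.0830 CPM in sucrose libraries, and Cers6, a ceramide synthase, 131 ± 54.1 CPM in SynSURF and 0.691 ± 1.20 CPM in sucrose libraries. Syt17, of the synaptotagmin family, averaged 155 ± 61.7 CPM in SynSURF and 0.630 ± 0.552 CPM in sucrose libraries, and Epb41l4b, of the FERM domain family, 113 ± 26.8 CPM in SynSURF and 0.0958 ± 0.166 CPM in sucrose libraries. Fitted log2 fold changes of these genes lay between 7.29 (Kctd16) and 10.03 (Slc9a7).

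A value in the deposited tables moved with the calls. The authors' tables give a count and a TPM, which is a count divided by the gene's length, so the ratio of count to TPM gives the length that was used, up to a constant per library. This implied length agreed between the 2 tables within 0.25 on the log2 scale for 10740 of the 11621 tested genes, lay outside for 791 (6.81%) and had no value for 90. Of the 228 higher genes it lay outside for 153, in 148 of them longer in the SynSURF table, within for 23, and had no value for 52, of which 48 had no sucrose count. Since 77.2% of the higher genes have a value, no share among those with one is given. Of the 42 lower genes it lay outside for 4, within for 35 and had no value for 3. The log2 ratio of implied lengths was 1.89 for Grin2a, 1.87 for Rims1, 1.70 for Lrrc7, 3.19 for Shc3 and 4.05 for Kctd16. It was 0.83 for Nefl, 0.53 for Adcy5 and 0.43 for Shank2. For Atp6v0c it was -0.29, which is close to the limit of 0.25 and shorter in the SynSURF table. Sucrose counts were 0, 8 and 0 for Kctd16, so its implied length there rests on those few counts. What length the authors used for a gene was not given in the sources used here, and its part in the calls was not tested. The longest annotated 3′ UTR had a median of 2623 bases among higher genes, 1012 among lower genes and 1528 among all tested genes.

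**Figure D3:**
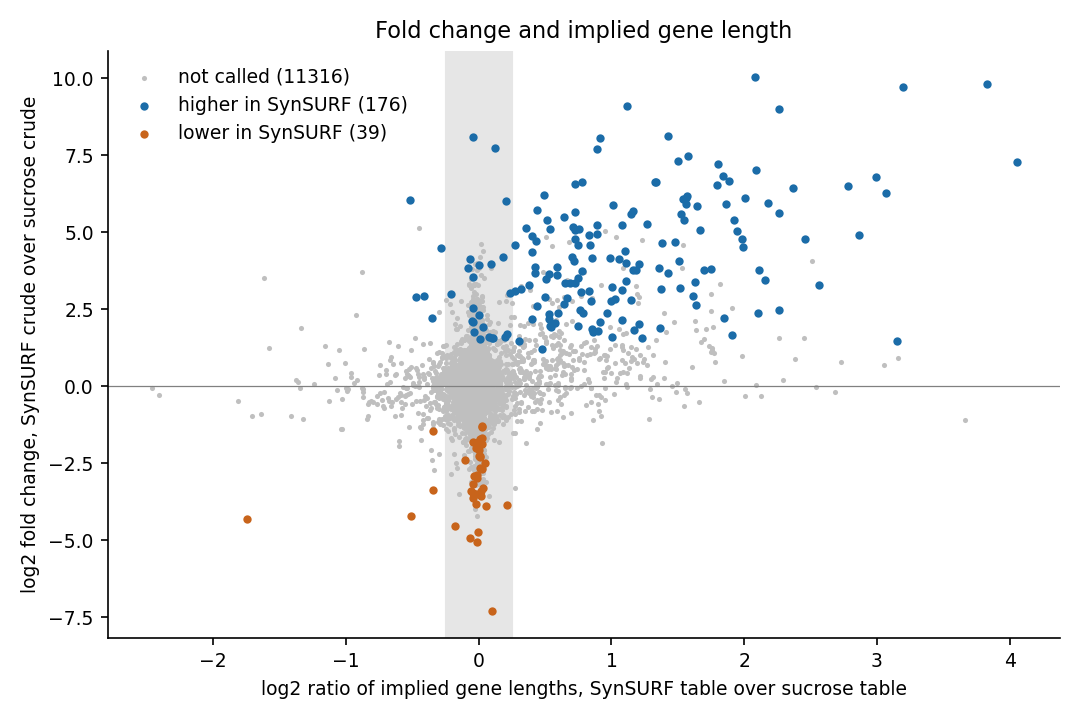
Log2 fold change of SynSURF crude over sucrose crude libraries against the log2 ratio of the gene lengths implied by the authors' counts and TPM (SynSURF table over sucrose table), with 1 point per tested gene that has a value; the grey band marks ratios within 0.25. The higher genes (blue, 176) lie mostly right of the band, and the lower genes (orange, 39) mostly inside it.

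The sorted sucrose libraries, which the calls did not use, were set beside the crude SynSURF libraries for the same genes. In 221 of the 228 higher genes the crude SynSURF mean was more than 2 times the sorted sucrose mean, beside 9.65% of all tested genes, and in 192 every sorted sucrose library lay below every crude SynSURF library, beside 3%. Of the 42 lower genes, 29 had a crude SynSURF mean more than 2 times below the sorted sucrose mean, beside 8.71% of all tested genes, and in 18 every sorted sucrose library lay above every crude SynSURF library, beside 1.69%. The crude SynSURF values in these counts are those that made the calls, so the counts describe the called genes and are no independent test of them.

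Of the main calls, 23 higher and 35 lower genes had a matching implied length. The test was not redone on such genes alone, and their adjusted p is the one over all genes tested. The error rate that the threshold sets over all tested genes therefore need not hold within this subset. Of the 23, 10 were called in each of the 13 fits that left out 1 library, and these are named here after their values were seen. Mobp, a basic protein of the myelin sheath, had a lowest of 566, a median of 1033 and a highest of 1387 CPM in the SynSURF libraries, against 93.3, 43.3 and 66.9 CPM in the sucrose libraries. The groups did not overlap (log2 fold change 3.86 ± 0.39, adjusted p = 3.2e-06), and the log2 ratio of implied lengths was -0.08. Mbp, myelin basic protein, was not called and averaged 3728 ± 1220.2 CPM in SynSURF and 4176 ± 1527 CPM in sucrose libraries (log2 fold change -0.16, 95% interval -0.84 to 0.52, adjusted p = 0.913). In sorted libraries Mobp had a lowest of 1669.5 and a highest of 11742 CPM in SynSURF, against 71.2, 45.2 and 57.5 CPM in sucrose.

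Pvalb, the calcium buffer of fast-spiking interneurons and Purkinje cells, had a lowest of 11.7, a median of 20.7 and a highest of 50.6 CPM in the SynSURF libraries, against 0, 0.144 and 0 CPM in the sucrose libraries, which is 20 to 265 counts per SynSURF library against a single count in the sucrose set (log2 fold change 7.74 ± 0.91, adjusted p = 1.71e-05). Its implied length in the sucrose table rests on that count. Sphkap, which anchors protein kinase A, averaged 219 ± 39.5 CPM in SynSURF and 73.04 ± 16.2 CPM in sucrose libraries (log2 fold change 1.58 ± 0.29, adjusted p = 0.00288). Snurf, a small protein read from the imprinted Snrpn locus, averaged 154 ± 45.3 CPM in SynSURF and 9.98 ± 6.18 CPM in sucrose libraries (log2 fold change 3.94 ± 0.48, adjusted p = 2.47e-05). The others of the 10 were Dok7, an activator of the muscle receptor kinase MuSK, at 36.8 ± 15.8 CPM in SynSURF and 0.173 ± 0.299 CPM in sucrose libraries, Hmbox1, a homeobox protein, at 31.3 ± 15.8 CPM in SynSURF and 0.287 ± 0.498 CPM in sucrose libraries, Mxra7 at 62.3 ± 24.2 CPM in SynSURF and 3.34 ± 0.789 CPM in sucrose libraries, Trim23 at 37.3 ± 10.9 CPM in SynSURF and 4.88 ± 4.02 CPM in sucrose libraries, 1500004A13Rik at 90.96 ± 18.7 CPM in SynSURF and 5.31 ± 2.38 CPM in sucrose libraries, and Pgm1. Sucrose counts were 1, 0 and 0 for Dok7 and 0, 6 and 0 for Hmbox1, so their implied lengths there rest on those few counts. The log2 ratio of implied lengths was -0.04 for Dok7 and 0.21 for Hmbox1.

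Among the 13 that lost their call in at least 1 such fit were several neuronal membrane genes with smaller changes. Psd, an ARF6 exchange factor of dendrites, had a lowest of 243, a median of 362 and a highest of 498 CPM in the SynSURF libraries, against 72.1, 167 and 131 CPM in the sucrose libraries (log2 fold change 1.57 ± 0.34, adjusted p = 0.0107). No libraries overlapped, but the adjusted p without sucrose replicate 1 was 0.123. Scn4b, a sodium channel beta subunit, averaged 135 ± 33.2 CPM in SynSURF and 44.5 ± 17.7 CPM in sucrose libraries (log2 fold change 1.59 ± 0.35, adjusted p = 0.0141, 0.124 without sucrose replicate 3). Cacna1i, a T-type calcium channel, averaged 168 ± 62.02 CPM in SynSURF and 43.9 ± 19.6 CPM in sucrose libraries (log2 fold change 1.93 ± 0.46, adjusted p = 0.025, 0.221 without sucrose replicate 1). Gfra2, the neurturin receptor, averaged 177 ± 64.8 CPM in SynSURF and 51.6 ± 17.2 CPM in sucrose libraries (log2 fold change 1.78 ± 0.43, adjusted p = 0.0272, 0.234 without that library).

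Some calls were of gene pairs that share sequence, a locus or a name. These pairs were chosen after their values were seen. RefSeq lists 8 called genes with an older name that is the symbol of another tested gene. For Eno1b, Pgm1 and Pgm2 the other gene was called in the opposite direction, and for Pakap, Prex1, Socs6, Zfp114 and Zfp72 it was not called (adjusted p = 0.809 to 0.97). Eno1, the glycolytic enolase, averaged 121 ± 69.8 CPM in SynSURF and 28.3 ± 12.995 CPM in sucrose libraries, while Eno1b, which RefSeq lists with the older name Eno1, averaged 0.535 ± 0.703 CPM in SynSURF and 100.1 ± 32.6 CPM in sucrose libraries. Both were called, in opposite directions, with log2 fold changes of 2.10 for Eno1 (adjusted p = 0.0459, 0.314 without sucrose replicate 1) and -7.30 for Eno1b (adjusted p = 2.3e-07). Their sum was 122 ± 69.9 CPM in SynSURF and 128 ± 25.7 CPM in sucrose libraries. Pgm1 and Pgm2, phosphoglucomutases that RefSeq (GRCm38.p6) lists each with the other's symbol as an older name, were called in opposite directions as well. Pgm1 averaged 46.1 ± 20.7 CPM in SynSURF and 3.00 ± 0.975 CPM in sucrose libraries (log2 fold change 3.97 ± 0.57, adjusted p = 0.000176). Pgm2 averaged 3.13 ± 2.22 CPM in SynSURF and 37.7 ± 10.9 CPM in sucrose libraries (log2 fold change -3.56 ± 0.53, adjusted p = 0.000245). Their sum was 49.3 ± 19.9 CPM in SynSURF and 40.7 ± 11.5 CPM in sucrose libraries. For Snurf and Snrpn, which are read from one transcript unit, the sum was 320.4 ± 93.2 CPM in SynSURF and 285.6 ± 121.8 CPM in sucrose libraries. The share of these calls that comes from how the authors assigned shared reads or named genes was not tested.

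**Figure D4:**
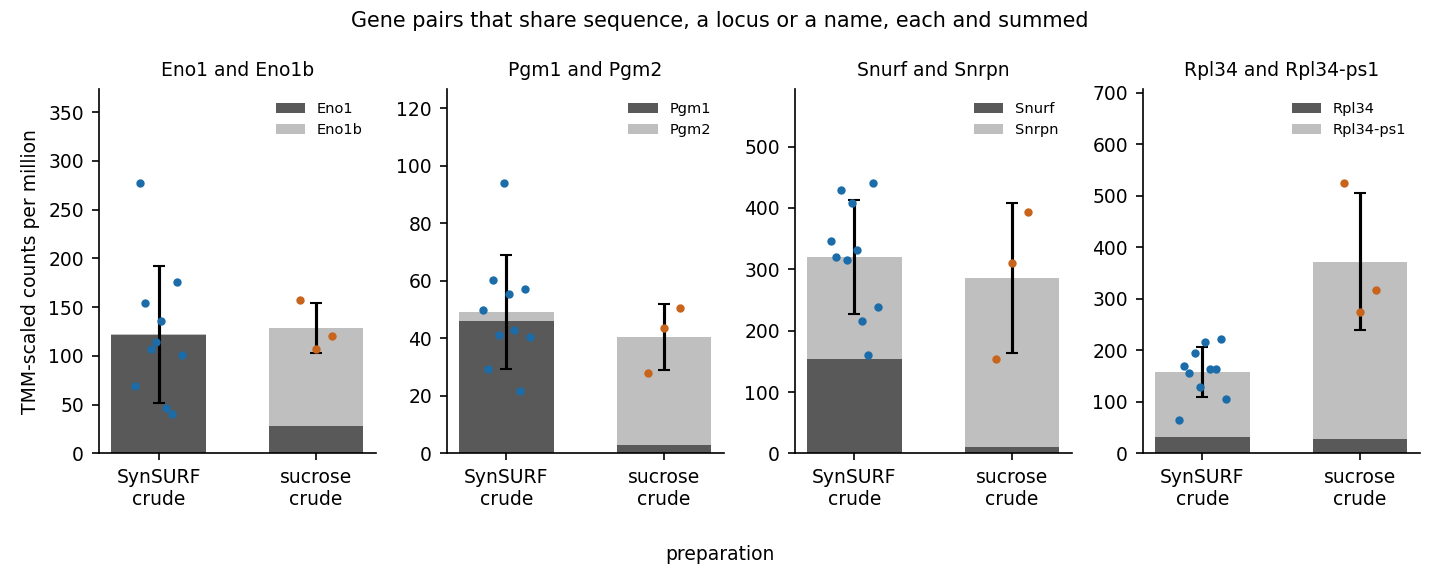
Mean TMM-scaled CPM of 4 gene pairs, stacked, in SynSURF crude (left, 10 libraries) and sucrose crude (right, 3 libraries); points are the summed levels of each library and error bars the SD of the sum. The stacks of Eno1 with Eno1b, Pgm1 with Pgm2 and Snurf with Snrpn reach similar heights in both preparations with a different division, while Rpl34 with Rpl34-ps1 is lower in SynSURF libraries.

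Rpl34-ps1, a processed copy of the ribosomal protein gene Rpl34, behaved differently. It averaged 127 ± 43.5 CPM in SynSURF and 345 ± 146 CPM in sucrose libraries (log2 fold change -1.43 ± 0.34, adjusted p = 0.0223), whereas Rpl34 averaged 31.1 ± 7.61 CPM in SynSURF and 27.3 ± 12.9 CPM in sucrose libraries (log2 fold change 0.18, 95% interval -0.63 to 0.99), and the sum was 159 ± 48.8 CPM in SynSURF and 372 ± 133 CPM in sucrose libraries. The call was lost without sucrose replicate 1 (adjusted p = 0.424). Part of both sequences is printed to show how alike the copies are. Rpl34-ps1 (chromosome 6, 71124610 to 71124963) and the coding sequence of Rpl34 (chromosome 3, 130726831 to 130730398) differ at 2 of 351 aligned bases in GENCODE M21 (GRCm38). Bases 232 to 351 of each are printed 5′ to 3′ with the differing base in capitals.
Rpl34-ps1: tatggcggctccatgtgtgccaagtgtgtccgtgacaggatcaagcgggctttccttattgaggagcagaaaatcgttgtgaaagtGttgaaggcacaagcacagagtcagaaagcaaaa
Rpl34: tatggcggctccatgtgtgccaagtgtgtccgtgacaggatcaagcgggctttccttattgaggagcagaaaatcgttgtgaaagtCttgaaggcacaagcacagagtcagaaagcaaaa

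The lists for translation and respiration had negative medians and few genes called by edgeR. Of 84 cytosolic ribosomal protein genes 1 was called, Rps6, and 69 had a negative and 15 a positive log2 fold change, with a list median of -0.37 beside 0.04 for all genes, of which 6077 were positive and 5544 negative. DESeq2 called 3 of the 84 and limma voom 1, and 15 had an unadjusted p under 0.05. Over all 11621 tested genes, DESeq2 called 375 and limma voom 225, and 1140 had an unadjusted p under 0.05. Of 73 nuclear-encoded respiratory chain genes edgeR called none, DESeq2 1 and limma voom none, 15 had an unadjusted p under 0.05, and 57 were negative and 16 positive (median -0.47). Of 38 translation factors edgeR and limma voom called none and DESeq2 1, with 5 at an unadjusted p under 0.05 (median -0.29), and 1 of 76 mitochondrial ribosomal protein genes was called, Mrpl52, which was lower (adjusted p = 0.139 without sucrose replicate 2; list median -0.05). These medians kept their sign under the 3 other scalings tried. The summed share of ribosomal protein genes was 0.921% to 3.55% of counts in SynSURF and 2.43% to 3.93% in sucrose libraries, so the preparations overlapped. All 11 tested nuclear-retained RNAs had negative log2 fold changes (median -0.62), and none was called by edgeR, DESeq2 or limma voom or had an unadjusted p under 0.05. Malat1, the best known of them, had a lowest of 13.9, a median of 22.7 and a highest of 34.7 CPM in the SynSURF libraries, against 9.85, 20.99 and 45.8 CPM in the sucrose libraries, with overlapping groups (log2 fold change -0.10, 95% interval -1.03 to 0.82).

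Rps6, a small-subunit ribosomal protein known as a target of S6 kinase, was the member that stood apart. It had a lowest of 13.4, a median of 69.96 and a highest of 130.3 CPM in the SynSURF libraries, against 1376, 149 and 557 CPM in the sucrose libraries. Every SynSURF library lay below every sucrose library (log2 fold change -3.18 ± 0.48, adjusted p = 0.000315), although the sucrose libraries differed widely among themselves. Without sucrose replicate 1, its highest library, the adjusted p was 0.0256.

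Many of the lower genes were high in a single sucrose library. Of the 42, 18 had every SynSURF library below every sucrose library, beside 0.361% of all tested genes, 19 kept their call without sucrose replicate 1, and 7 were called in each of the 13 fits that left out 1 library. The median log2 fold change of the 42 was -3.24. Trpv2, a calcium-permeable channel, had a lowest of 1.66, a median of 2.98 and a highest of 7.17 CPM in the SynSURF libraries, against 264, 7.91 and 5.66 CPM in the sucrose libraries (log2 fold change -4.72 ± 0.70, adjusted p = 0.000216, but an adjusted p of 1 without sucrose replicate 1). Chfr, a mitotic checkpoint ubiquitin ligase, had a lowest of 5.82, a median of 25.8 and a highest of 54.6 CPM in the SynSURF libraries, against 822, 20.7 and 60.2 CPM in the sucrose libraries (log2 fold change -3.51 ± 0.65, adjusted p = 0.00264, but an adjusted p of 1 without that library). Smim19 and Surf1, an assembly factor of cytochrome c oxidase, had means of 34.02 and 8.66 CPM in SynSURF libraries, against 1064, 45.6 and 23.7 CPM (Smim19) and 239, 10.9 and 26.7 CPM (Surf1) in sucrose libraries, again highest in replicate 1. Tbl3, a protein of ribosome assembly, had a mean of 5.29 CPM in SynSURF libraries, against 3.63, 7.91 and 114 CPM in sucrose libraries, and was high in replicate 3 instead, without which its adjusted p was 0.99.

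Other lower genes had no overlap between the groups. Tuba1c, an alpha tubulin, had a lowest of 0, a median of 0.942 and a highest of 10.4 CPM in the SynSURF libraries, against 14.5, 52.3 and 18.5 CPM in the sucrose libraries (log2 fold change -3.83 ± 0.82, adjusted p = 0.011). Tubulin genes share much sequence, and without sucrose replicate 2 the adjusted p was 0.13. Ift27, a small GTPase of cilia, had a lowest of 2.92, a median of 6.69 and a highest of 12.99 CPM in the SynSURF libraries, against 23.3, 70.1 and 24.2 CPM in the sucrose libraries (log2 fold change -2.39 ± 0.47, adjusted p = 0.00528, 0.135 without sucrose replicate 2). Per1, a clock gene induced by activity, had a lowest of 18.5, a median of 25.5 and a highest of 35.2 CPM in the SynSURF libraries, against 94.9, 51.6 and 45.8 CPM in the sucrose libraries (log2 fold change -1.29 ± 0.32, adjusted p = 0.0369, 0.651 without sucrose replicate 1). It was the 1 lower gene among 27 tested immediate early genes, of which 1 other, Dusp5, was higher at 4.85 CPM in SynSURF against 0 counts in sucrose libraries (adjusted p = 0.0978 without sucrose replicate 2), and 25 were not called.

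Of 5 listed genes of the Y chromosome, 4 had counts in every sucrose library and none in any SynSURF library. Ddx3y, an RNA helicase gene expressed in male cells, had 0 counts in all 10 SynSURF crude libraries, and 118, 248 and 118 counts (61.2, 35.6 and 60.7 CPM) in the sucrose crude libraries. It was at least 654-fold lower in SynSURF libraries, with a floor of 3 counts over the group (adjusted p = 1.27e-05). The 10 sorted SynSURF libraries also had 0 counts, and the 3 sorted sucrose libraries had 96, 160 and 109. Eif2s3y, a translation factor subunit, had 0 counts in every SynSURF library and 8, 17 and 12 in the sucrose libraries (adjusted p = 0.00697, 0.0537 without sucrose replicate 3). Uty and Kdm5d had 0 counts in SynSURF libraries, against 13, 15 and 14 (Uty) and 2, 11 and 11 (Kdm5d) in sucrose libraries, too few for the expression filter, and Usp9y had no count in any crude library. Xist, the RNA that coats the inactive X chromosome of female cells, had 1 to 14 counts in 8 of the 10 SynSURF libraries and 0 in the other two, against 0 in all sucrose libraries. The X-linked partners Ddx3x, Eif2s3x, Kdm5c and Kdm6a, looked up after these values were seen, were not called, with log2 fold changes of 0.50, 1.16, 0.27 and 0.79. For Eif2s3x all 10 SynSURF libraries lay above the highest sucrose library (95% interval 0.41 to 1.91, edgeR adjusted p = 0.138). That number was 3 for Ddx3x, 5 for Kdm5c and 8 for Kdm6a. The labels do not give the sex of the animals, and what part it has in the other calls was not tested. Because the Y-linked counts split fully by preparation, any difference in sex cannot be told apart from preparation here.

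Ddx3y and Ddx3x are close relatives, so a stretch of both is printed to show how often they differ. Over 1971 bases aligned without a gap they were 84.6% identical. Coding bases 1649 to 1768 of Ddx3y and 1652 to 1771 of Ddx3x hold 17 differences, shown in capitals (GENCODE M21, GRCm38, 5′ to 3′, Ddx3y on the minus strand of chromosome Y and Ddx3x on the plus strand of chromosome X).
Ddx3y: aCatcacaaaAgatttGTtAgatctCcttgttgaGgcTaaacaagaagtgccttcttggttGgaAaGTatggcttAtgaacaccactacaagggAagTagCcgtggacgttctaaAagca
Ddx3x: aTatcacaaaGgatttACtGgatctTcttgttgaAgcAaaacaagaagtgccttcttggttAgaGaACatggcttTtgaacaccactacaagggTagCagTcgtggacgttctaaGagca

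Of 3 measures of the whole libraries, 1 passed the test. At a common depth of 1010124 counts, the libraries held 11838 ± 456 detected genes in SynSURF and 12006 ± 105 in sucrose libraries (exact 2-sided permutation test, p = 0.556, adjusted over the 3 measures 0.615). The share of counts in the 10 most abundant genes was 7.41% ± 0.937 in SynSURF and 7.74% ± 1.12 in sucrose libraries (exact permutation test, adjusted p = 0.615). Rn45s, the ribosomal RNA unit, took 0.0916%, 0.361% and 0.799% of counts (lowest, median and highest) in SynSURF libraries, against 0.976%, 0.696% and 3.01% in sucrose libraries. It was lower in SynSURF libraries, with 8 of 10 below the lowest sucrose library (exact permutation test, p = 0.0105, adjusted p = 0.0315, smallest possible 0.0035). Without sucrose replicate 1, and likewise without replicate 3, the adjusted p was 0.136.

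Single libraries stood out for single genes within the SynSURF set. The 6 genes with the highest coefficient of variation there included Mib2, a ubiquitin ligase, at 0, 4.27 and 464 CPM for lowest, median and highest, Cdc34, a ubiquitin-conjugating enzyme, at 6.52, 16.98 and 478 CPM, and Edf1, a transcriptional coactivator, at 21.02, 59.3 and 1373 CPM. In the sucrose libraries the same genes had 1.04, 7.33 and 97.2 CPM, 18.1, 47.4 and 45.3 CPM and 109, 214 and 66.4 CPM. None was called. The 10 most abundant genes of each preparation shared Camk2n1, Itm2c, Rtn3, Scd2, Slc1a2 and Ttc3, among others. Itm2c averaged 10547 ± 3825 CPM in SynSURF and 5375 ± 2882 CPM in sucrose libraries (log2 fold change 0.97) and Ttc3 8039 ± 3736 CPM in SynSURF and 4532 ± 1832 CPM in sucrose libraries (log2 fold change 0.83), neither of them called.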

How the data were processed

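Each preparation has 1 deposited table of estimated counts by gene symbol, with a TPM beside each count. Per the submitters' processing notes, the tools fastp and HISAT2 and the builds GRCm38 and GRCm39 were used, in roles the notes leave out. Counting tool, annotation and strand setting: not given in the sources used here. Some deposited counts were not whole (6685 SynSURF and 2260 sucrose crude values), so all were rounded. The deposited TPM served only for the implied gene length (genes with at least 1 count and 0.2 TPM) and for 1 alternative. Columns of 31 other per-sample values were not used, no mt- symbol was in the joined table, and the 2 total RNA libraries were not used.

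Symbols in both tables were tested with edgeR 4.0.16 (R 4.3.3; TMM, filterByExpr, glmQLFit, glmQLFTest, group as the only term) over the 13 crude libraries. Shares and genes detected were compared with exact permutation tests, 2-sided, on group means, adjusted over 3 measures. Intervals are 95% and the floor of 3 counts covers counting error only. The fitting was tested on simulated data. No pair of libraries of one group agreed within sampling noise (chi-square per degree of freedom 10.9 to 97.9 over 48 pairs).

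The members, gene lists and comparison were chosen with earlier results of these data known. Genes named include the 10 highest and 10 lowest called genes with a mean of at least 20 CPM and counts in both preparations. Predicted-gene and clone names were left out. Also named are the 4 most abundant genes with 0 counts in one preparation and up to 3 called members per list. A panel of widely used mRNAs, with neuronal and glial markers among them, was named too. The rest are the 10 most abundant genes of each preparation and the 6 most variable in SynSURF, with some left out here. The gene pairs, X-linked genes and genes with matching implied length were added after their values were seen. Positions and sequences are from GENCODE M21 (GRCm38), older names from RefSeq (GRCm38.p6). Alternatives were other scalings (DESeq2 1.42.0 size factors, upper quartile, library totals), DESeq2's Wald test, limma 3.58.1 voom, filters, thinning, a minimum fold, a replicate block, Rn45s removed, and each library left out. Added after seeing the data were a join through synonyms and limma on log2(TPM + 1). The main calls with matching implied length were also counted, without a new fit.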

Additional observations from a re-analysis of the deposited data

Results flagged for a closer look

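Among the 10 SynSURF crude libraries, 13 of 85 genes and measures examined had 1 library whose distance to the next, divided by the group's whole range, exceeded Dixon's 95% critical value. Chance alone gives about 1 such flag in 20 groups, and CPM values of variable genes are skewed towards high libraries.

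In each case the highest library stood apart. Mib2 reached 464 CPM in replicate 8 beside 18.1 in the next library, Cdc34 478 CPM in replicate 6 beside 32.4, and Edf1 1373 CPM in replicate 9 beside 358. These 3 genes were taken for their variation, so the flag is no independent sign of it. Syp, the synaptophysin mRNA, reached 80.7 CPM in replicate 9 beside 36.8.

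Of genes higher in SynSURF libraries, Lrrc7 reached 1272 CPM in replicate 1 beside 857, Hmbox1 72.9 CPM in replicate 1 beside 37.0, Syt17 306 CPM in replicate 8 beside 181, and Pgm1 93.2 CPM in replicate 5 beside 55.9. Each of these genes kept its call without any 1 library. Of genes lower in SynSURF libraries, Tuba1c reached 10.4 CPM in replicate 1 beside 2.32, Tbl3 15.2 CPM in replicate 5 beside 6.82, Smim19 79.8 CPM in replicate 8 beside 43.4, and Eno1b 2.32 CPM in replicate 9 beside 0.954. The X-linked Kdm6a reached 49.5 CPM in replicate 5 beside 31.7.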

How the results depend on the processing

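Counts of higher genes lay between 156 and 325 over the alternatives, beside 228 in the main comparison. Of the main calls, 23 higher and 35 lower had a matching implied length. These are a subset of the calls, not a new fit. Leaving out each library gave 173 to 241 higher and 24 to 75 lower genes, with the lowest and highest count of lower genes without sucrose replicates 1 and 2. Lower genes, 42 in the main comparison, numbered 25 with libraries thinned to the shallowest total, 17 with a minimum log2 fold change of 1 and 76 with no filter. Deviations from the group mean in same-numbered libraries of the 2 preparations had correlations of -0.23, -0.39 and 0.00. Those of differently numbered libraries lay between -0.14 and 0.23. As genes are not replicates, these few values cannot decide whether the numbers pair the samples. The replicate block gave 156 higher and 15 lower genes. In that fit only the libraries numbered 1, 2 and 3 of each preparation inform the group difference, so it uses fewer SynSURF libraries than the main comparison. The DESeq2 Wald test gave 325 higher and 50 lower genes, limma voom 183 and 42, and limma on log2(TPM + 1) 171 and 30. The Rn45s share differed by -1.598 to -0.440 percentage points on leaving out each library. Without sucrose replicate 1, 2 of the 42 lower calls changed sign, and with limma on log2(TPM + 1) 2 of the 228 higher calls did. On leaving out each library, the log2 fold change of Kcnj6, an ion channel gene lower in the main comparison, lay between -4.45 and 0.35, positive without sucrose replicate 1 alone. The cause of these differences was not tested. With 3 sucrose libraries and 1010124 counts in the shallowest SynSURF library, small changes and scarce genes such as Xist are the least certain.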
